A study of Mus musculus with 14 samples.

Results

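The comparison described here set 3 female fetuses that had received, as zygotes, a synthetic copy (mimic) of the microRNA let-7f-5p against 5 female fetuses that had received vehicle, out of 14 fetuses in the series. Group and sex were taken from the sample titles, and the same 8 libraries are the members of this comparison in the deposited table. All fetuses were WT, of the strain F1 C57BL/6Jx129S1/SvlmJ, and were harvested at gestational day 12.5. Zygotes had been assigned at random to microinjection of nuclease-free water or of the let-7f miRCURY LNA mimic at a dose the labels call stress-relevant. They were then cultured in KSOM medium and carried to harvest by CD1 recipient dams. The series also holds 4 vehicle males and 2 let-7f males of the same strain, age and treatments. The series title poses the question of whether let-7f in the zygote alters later growth in a way that depends on sex. No label names a dam or litter, so fetuses of a group may be litter mates, and the tests measure the spread between these fetuses only. Messenger RNA of whole fetuses was sequenced after poly-A selection, so mature let-7f itself, which has no poly-A tail, was not measured.

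MicroRNAs of the let-7 family guide Argonaute proteins to messenger RNAs whose 3' untranslated regions (3' UTRs) match the seed of the microRNA, its bases 2 to 8, and lower the stability and translation of those RNAs. The family is low in early embryos and rises as tissues differentiate. Its best known targets, Lin28a, Lin28b, Hmga2, Trim71 and the Igf2bp genes, belong to an embryonic program of growth, and LIN28 proteins in turn block the maturation of let-7. A mimic put into a zygote is diluted by cell division, and the labels give no level of it at gestational day 12.5.

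The mimic is given here, 5' to 3', beside 4 mouse relatives, because the seed (capitals) decides which transcripts the family can recognise. The sequences are from RefSeq on GRCm38.p6, and the mimic is identical to the mature mouse let-7f-5p, which is encoded both by Mirlet7f-1 (chr13:48537889-48537910, minus strand) and by Mirlet7f-2 (chrX:151912353-151912374, plus strand).
mimic and let-7f-5p: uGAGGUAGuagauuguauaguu
let-7a-5p: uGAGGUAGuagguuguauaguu
let-7g-5p: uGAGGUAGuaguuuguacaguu
miR-98-5p: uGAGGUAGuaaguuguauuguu
let-7j: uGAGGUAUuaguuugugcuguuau
The mimic differs at 1 base from let-7a-5p, at 2 from let-7g-5p and at 3 from miR-98-5p, all of them outside the seed, while let-7j has another seed. A site that pairs with the seed and carries an A opposite base 1 reads CTACCTCA in the transcript. In the longest 3' UTR of each gene (GENCODE M21, GRCm38), this site of 8 bases was present in 580 of 15768 tested genes with such a UTR, which is 3.68%. Only the transcript strand was searched. A match of 7 bases (CTACCTC or TACCTCA) without one of 8 was present in 2080 genes, and 13108 had neither.

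Sites of 4 known targets, with the matching bases in capitals and 14 bases before them in the transcript, are shown first, because these genes are where a let-7 effect would be looked for. Igf2bp1 carries 3 such sites and Trim71 carries 4, of which 1 each is shown.
Lin28b (chr10:45381022-45381043, minus strand): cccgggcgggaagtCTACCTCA
Hmga2 (chr10:120364224-120364245, minus strand): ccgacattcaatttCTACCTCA
Igf2bp1 (chr11:95961778-95961799, minus strand): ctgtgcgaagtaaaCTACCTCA
Trim71 (chr9:114512472-114512493, minus strand): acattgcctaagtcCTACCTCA
Sites of 5 other genes follow, because all the let-7f females lay on one side of all the vehicle females there. They were chosen after their values were seen.
Ppme1 (chr7:100327487-100327508, minus strand): ggcatggtcctgccCTACCTCA
Clpb (chr7:101788661-101788682, plus strand): ctgcctgctccttaCTACCTCA
Ddx19a (chr8:110975904-110975925, minus strand): tgagtagagactacCTACCTCA
Coil (chr11:88990881-88990902, plus strand): taggaaaaaaagatCTACCTCA
Egr3 (chr14:70081402-70081423, plus strand): cgcacctccctgccCTACCTCA

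The 8 female libraries held between 32844289 and 42898166 recovered reads each. The labelled sex held in all of them, since the Y-linked gene Eif2s3y had values of 1.07 to 5.25 in vehicle and 1.70 to 10.6 in let-7f females, against at least 2979 in every male. Ribosomal protein genes took between 4.03% and 7.14% of the reads. Libraries of one group also differed in tissue content. Vehicle female 2 was nearly without liver transcripts, with a value of 43.8 for Alb, the albumin gene, against 10269 to 50229 in the other vehicle females. Whether that fetus had little liver tissue or its liver cells made less of these RNAs cannot be told apart in bulk RNA. Over all genes tested, a vehicle female differed from another vehicle female by 0.524 to 0.939 (root mean square difference in log2 values), and from a let-7f female by 0.440 to 0.777. Distances between the groups were thus no larger than the largest among vehicle females, and the smallest of all was between the groups.

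One gene of 17400 passed the test in females (0.00575%), the unprocessed pseudogene Gm2436 (chr12:55142109-55151007, minus strand), and its values have to be read together with those of a copy. It stood at 355, 270.5, 258, 35.4 and 38.3 in vehicle females 1 to 5 and at 0 in each let-7f female, so the groups did not overlap. Against a floor of 3 reads per library, its mean was at least 66.5-fold lower in let-7f females (limma adjusted p = 0.0168). Gm2446, which matches Gm2436 over 771 bases without a mismatch, had 64.5, 0, 15.6, 254 and 255 in vehicle and 241, 293 and 357 in let-7f females. Libraries rich in one copy were thus poor in the other, and all the let-7f females had reads for Gm2446 alone. Both copies together averaged 309 ± 62.2 (SD, n = 5) over the vehicle fetuses and 297 ± 57.9 (SD, n = 3) over the let-7f fetuses, with a log2 change of -0.056 (exact two-sided permutation test, p = 0.857). With the parent gene Ppp2r3c added, which encodes a regulatory subunit of protein phosphatase PP2A and matches Gm2436 at 99.5% of 774 bases, the log2 change was -0.041 (exact permutation p = 0.536). That sum averaged 1624 over the vehicle fetuses, against 309 for both copies, so it is mostly Ppp2r3c and says little about Gm2436. Gm2446 and Ppp2r3c were chosen after the values were seen. Because short reads cannot separate copies this alike, the split between them is uncertain, and with it the single call. In males, Gm2436 had 254, 179, 38.1 and 242 in the 4 vehicle and 414 and 283 in the 2 let-7f libraries, and Gm2446 had 0, 188, 223 and 27.5 and 0 and 29.5. The call was absent without vehicle female 2 or 3 or any 1 of the let-7f females, where 0 genes were called. DESeq2 called Gm2436 and Rpl15-ps6 (0.0115% of genes), while edgeR called 0. Rpl15-ps6, named after its values were seen, had 45.1, 19.3, 0, 0 and 34.5 in vehicle females and 0 in each let-7f female, so that vehicle females 3 and 4 overlapped with the let-7f females.

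**Figure D1:**
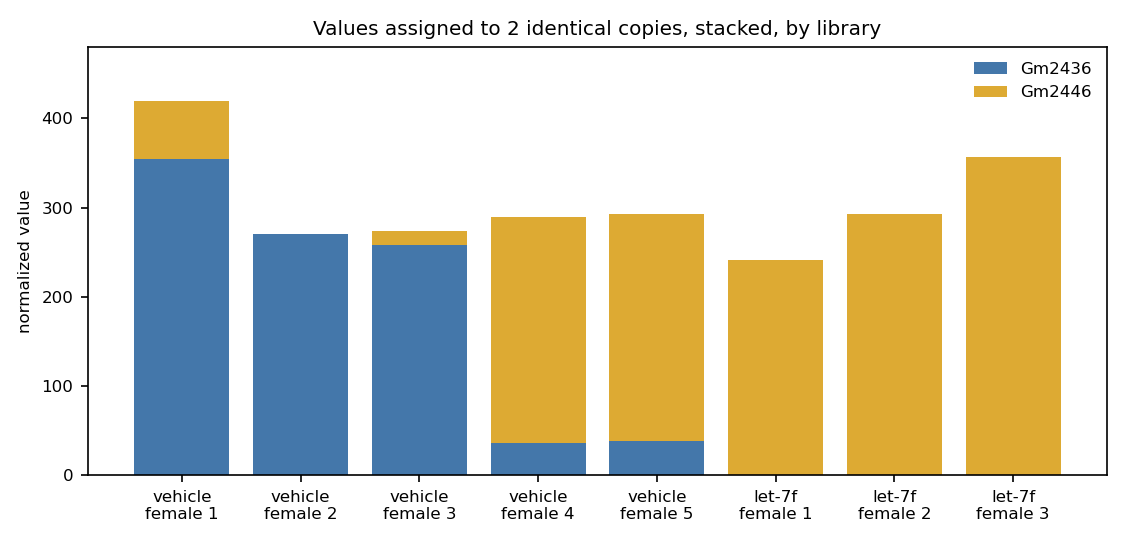
Stacked bars give the normalized value assigned to Gm2436 (blue) and to its copy Gm2446 (yellow) in each of the 8 female libraries. The 3 let-7f females have no blue part, vehicle female 2 has no yellow part, and the total bars run from 241 to 419 with both groups overlapping.

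For every other gene, limma's adjusted p was 0.9998 or more, and 141 genes (0.810%) had an unadjusted p under 0.05, of which 86 lay higher and 55 lower in let-7f females. Independent genes without any difference would give about 870. At that unadjusted threshold edgeR gave 148 and DESeq2 210, while limma gave 312 with the females alone, 494 without 5 libraries that stood apart (vehicle females 1 and 2, vehicle males 1 and 2 and let-7f male 1) and 4051 with library weights. The median log2 change of all genes was -0.0039, and 49.1% of genes lay higher. The median size of a change, without its sign, was 0.122 on the log2 scale and the median SE was 0.241. A typical gene's 95% interval reached 0.519 to either side of its change, or 1.43-fold, so smaller differences were not detectable here for that gene. These intervals are not adjusted for the number of genes, so larger changes could also go uncalled. Rbm24, described below, changed 2.07-fold and had a limma adjusted p of 0.9998. In 137 genes (0.787%) every let-7f female lay above every vehicle female, and in 123 genes (0.707%) every one lay below. These are the shares against which the gene lists below are read.

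The known let-7 targets overlapped between the groups. Hmga2, an architectural chromatin protein that marks growing embryonic tissue, had values of 9408, 13454, 14838, 11844 and 15400.1 in vehicle females and 12416, 10314 and 14012 in let-7f females. The 3 let-7f values lay inside the vehicle range, with a log2 change of -0.074 (95% interval -0.51 to 0.36). Lin28b, which blocks let-7 maturation, had 495, 759.8, 895, 545 and 794 against 677, 684 and 659 (log2 change -0.015, 95% interval -0.44 to 0.41). Here too the let-7f values fell within the vehicle range. Its relative Lin28a was low and variable, with 62.3, 133, 226, 90.4 and 184 against 206, 91.2 and 132 (log2 change 0.11, 95% interval -0.86 to 1.07). Trim71, a ubiquitin ligase and RNA-binding protein of early development, had 249, 586, 582, 353 and 616 against 447, 330.2 and 453 (log2 change -0.15, 95% interval -0.83 to 0.53). The RNA-binding proteins Igf2bp1 (log2 change -0.079, 95% interval -0.62 to 0.46) and Igf2bp3 (-0.046, 95% interval -0.46 to 0.37) overlapped between groups as well. In these targets vehicle female 1 was the lowest library, as in Igf2bp1, where it had 5330.3 against 6893 to 11265 in the other vehicle females. Of 16 genes in the list of LIN28 and oncofetal let-7 targets, 0 were called and 0 were free of overlap; 5 of 16 lay higher, with a median log2 change of -0.055. Leaving out each female library in turn gave medians of -0.17 to 0.028, the lowest without vehicle female 1 and the one above 0 without vehicle female 3. Among 26 let-7 targets of growth and cell cycle, 18 of 26 lay lower (median -0.060, and 0.00025 without vehicle female 3), among them Mycn, a driver of progenitor growth (-0.30, SE 0.203), and Ccnd1, a cyclin of the G1 phase (-0.23, SE 0.223). The genes of microRNA processing lay higher in 13 of 24 (median 0.034), and Dicer1, which cuts the precursors, had -0.063 (SE 0.226).

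Genes grouped by their let-7 sites had medians near that of all genes. The 580 genes with a site of 8 bases had a median log2 change of 0.022, and 55.9% of them lay higher in let-7f females. Genes with only a site of 7 had a median of 0.029, and genes without a site had -0.012. The few genes with 2 or more sites of 8 bases, 29 in number, had a median of 0.052. Genes with a site of 8 bases also have longer transcripts (median 4667.5 bases against 3401.5 for all genes with a 3' UTR). Genes with transcripts over 3000 and up to 5000 bases had a median log2 change of 0.0041. Those over 5000 bases had one of 0.064, as given further on. Whether transcript length accounts for the median of the genes with a site was not tested. Among the same 580 genes, 9 were lower in every let-7f female than in every vehicle female (1.55%, against 0.647% of all genes with a 3' UTR), and 1, Egr3, was higher in every one (0.172% against 0.761%). The 9 were Arhgef2, Clpb, Coil, Ddx19a, Liph, Ppme1, Styk1, Top3b and Tsnax, and 0 of them were called. Under the alternative with libraries rescaled to a common 75th percentile, 4 of the 580 lay lower without overlap (0.690% against 0.450%) and 1 lay higher. After centring within classes of transcript length, which was added after seeing the data, 9 lay lower (1.55% against 1.07%) and 2 higher (0.345% against 1.02%). Without let-7f female 3 the order of these shares was reversed, with 8.45% lower against 11.9% and 7.41% higher against 6.64%. These counts were looked at after the values were seen and were not tested.

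**Figure D2:**
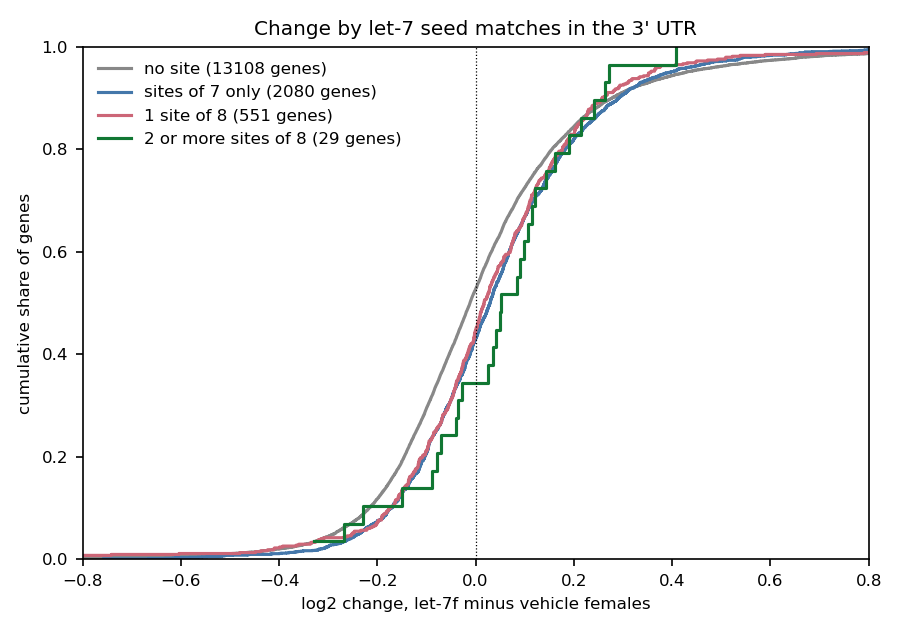
Cumulative share of genes (vertical axis) by log2 change of let-7f against vehicle females (horizontal axis), in 4 classes of let-7 seed match in the 3' UTR. The curves lie close together around 0, with medians of -0.012 without a site, 0.029 with sites of 7 bases only, 0.017 with 1 site of 8 and 0.052 with 2 or more.

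Ppme1, a methylesterase that acts on protein phosphatase PP2A, was at 2372, 2745, 2679.9, 2649.6 and 3011 in vehicle and 2141, 1980.0 and 2336 in let-7f females. Its highest let-7f value lay just under its lowest vehicle value (log2 change -0.32, 95% interval -0.72 to 0.078). Clpb, a mitochondrial protein disaggregase, had 1841, 1783, 1887, 2043 and 2037 against 1634, 1491 and 1773 (log2 change -0.23, SE 0.107). Coil, the scaffold protein of Cajal bodies, was at 1088, 1023, 1079, 1024 and 1185 in vehicle and 975, 948 and 1019.6 in let-7f females (log2 change -0.14, 95% interval -0.36 to 0.082). Each of these 3 genes had its highest let-7f value in let-7f female 3. In males the sign was the opposite, with log2 changes of 0.41 for Clpb and 0.13 for Coil. Egr3, an immediate early transcription factor, was near the detection floor with 9.67, 9.63, 15.6, 8.38 and 8.62 against 20.6, 21.1 and 17.0.

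Growth regulators overlapped between the groups. Igf2, the main fetal growth factor of the insulin-like family and an imprinted gene, had 97269.7, 80096, 54658, 91118 and 75220.1 in vehicle and 97466, 95677 and 71504 in let-7f females. The let-7f values ran across most of the vehicle range (log2 change 0.16, 95% interval -0.30 to 0.62). Igf1r, the receptor for both IGF ligands, had a log2 change of -0.024 (95% interval -0.62 to 0.57). Igf1, the second ligand, stood at 4065, 4685 and 2791 in let-7f females, with the third inside and the others above the vehicle range of 2789 to 3705 (log2 change 0.27, SE 0.222). Ghr, the growth hormone receptor, had the same pattern, with 1659, 1844 and 1193 against 1070.2 to 1575 in vehicle females. Let-7f female 3 was thus unlike the other let-7f females in this group of genes. Of the IGF and growth hormone axis, 15 of 23 genes lay higher with a median of 0.024, and 0.16 without let-7f female 3. Imprinted genes lay higher in 17 of 30 (median 0.079), for example Plagl1, a zinc finger regulator of the imprinted gene network, with 8381, 12018, 13747, 9702 and 10498 in vehicle and 15082, 17215 and 10645 in let-7f females. Proliferation genes lay lower in 32 of 36 (median -0.12, and -0.20 to -0.047 with each female library left out), such as Bub1, a spindle checkpoint kinase (-0.23, SE 0.135), and Top2a, which untangles DNA in dividing cells (-0.26, SE 0.165). By library, the proliferation median was -0.042, -0.070, -0.0085, 0.0081 and 0.15 in vehicle and -0.13, -0.24 and 0.061 in let-7f females. Let-7f females 1 and 2 thus lay below the vehicle range, and let-7f female 3 lay above every vehicle female but vehicle female 5. None of these lists held a gene without overlap between the groups.

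Among genes of established symbol with a mean value of at least 50 over the females, 87 lay higher and 82 lower without overlap, and genes from the 12 smallest p-values on each side are described next; limma's adjusted p was 0.9998 for each. Rbm24 (chr13:46418434-46431095, plus strand) encodes an RNA-binding protein that controls splicing in muscle and heart. It had values of 309, 341, 403, 334 and 410.1 in vehicle and 865, 808 and 582 in let-7f females, and the lowest let-7f female lay well above the highest vehicle female. The log2 change was 1.05 (2.07-fold, 95% interval 0.52 to 1.58). The vehicle males, at 834, 325, 479 and 465, spanned most of the range of both female groups. Rerg, a Ras-like inhibitor of growth, had 105, 95.4, 109.9, 82.0 and 102 against 150.1, 197 and 143 (log2 change 0.71, SE 0.176). Its vehicle males, at 160.5, 164, 198 and 213, lay at the level of the let-7f females or higher. Slc26a7, an anion transporter, had 46.2, 91.0, 56.8, 53.1 and 42.2 against 104, 133 and 127 (2.15-fold, SE of the log2 change 0.318), with vehicle female 2 the closest to the let-7f values.

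Manba, the lysosomal enzyme beta-mannosidase, had 211, 348, 286, 271 and 223 in vehicle and 383, 370.5 and 387 in let-7f females (log2 change 0.53, SE 0.155). The let-7f libraries were tightly grouped there, just above the highest vehicle library. Adk, which phosphorylates adenosine, had 1391, 1362, 1349.6, 1412 and 1525 against 1737, 1748 and 1934 with a clear gap between the groups (log2 change 0.36, 95% interval 0.072 to 0.65). Bnip3, a mitochondrial protein of mitophagy that hypoxia induces, had 1023, 916, 886, 959 and 937 against 1067, 1149 and 1141 (log2 change 0.25, SE 0.0926). Slitrk4, a membrane protein of neurons, had a log2 change of 0.69 (SE 0.24). Camk4, a calcium-dependent kinase, had 125, 130.4, 137, 142 and 139 in vehicle and 184, 185 and 157 in let-7f females. Also on this side were the calcium-binding protein gene Gca (1.05, SE 0.388), the pheromone receptor gene Vmn1r227 (0.77, SE 0.266) and Myrip, a linker of myosin to vesicles (0.79, SE 0.306).

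**Figure D3:**
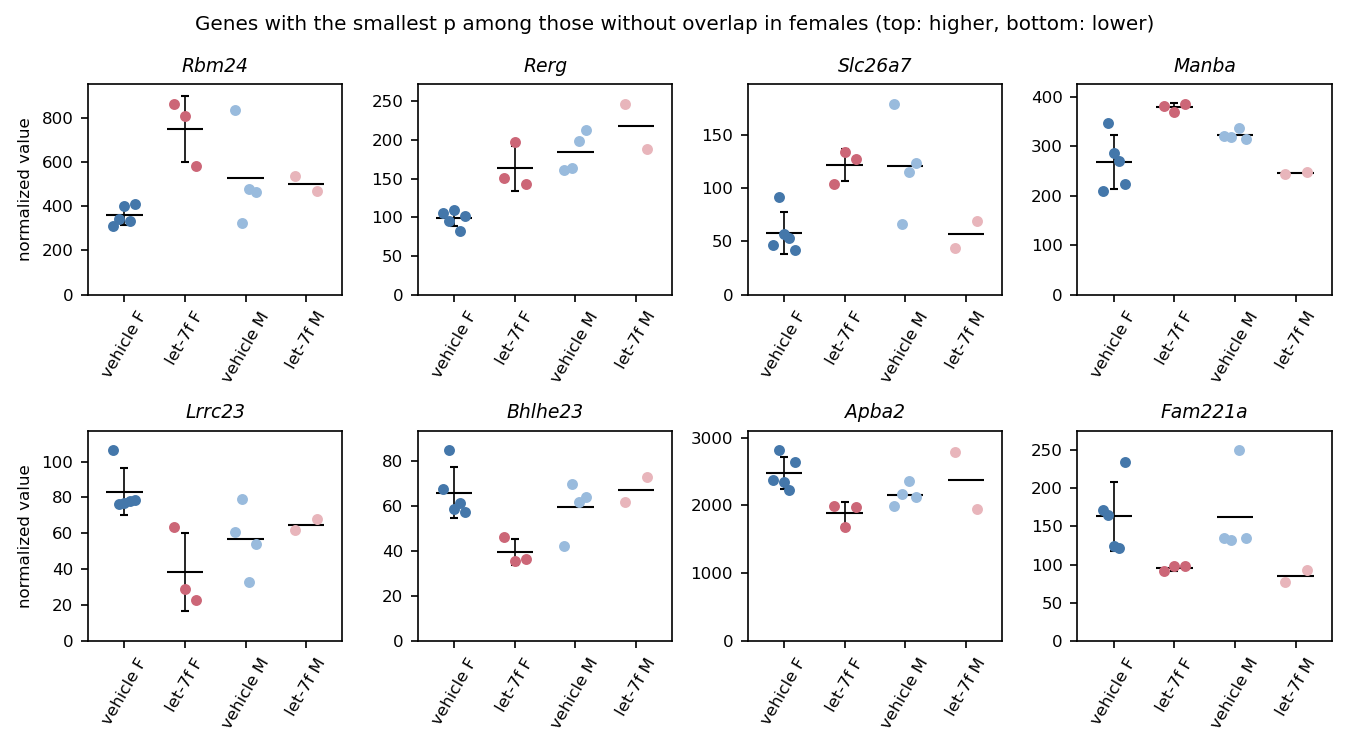
Normalized value (vertical axis, from 0) of the 4 genes with the smallest p on each side in females, among genes of established symbol without overlap and with a mean of at least 50, by group (F, females; M, males); points are libraries, black lines group means, and bars 1 SD in the female groups. In every panel the let-7f females lie entirely above (top) or below (bottom) the vehicle females, while in Rbm24 the vehicle males run from 325 to 834 across both.

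On the lower side, Lrrc23 (chr6:124769863-124779727, minus strand), a component of motile cilia and sperm tails, had 106, 76.2, 76.9, 78.3 and 78.6 in vehicle and 63.5, 28.8 and 23.0 in let-7f females. Let-7f females 2 and 3 lay far below let-7f female 1, and vehicle female 1 stood above its group (log2 change -1.22, 95% interval -1.93 to -0.51). Bhlhe23, a transcription factor of neurons, had 67.7, 84.9, 58.6, 61.5 and 57.5 against 46.1, 35.5 and 36.6 (log2 change -0.73, SE 0.217). Apba2, an adaptor that binds the amyloid precursor protein, had 2370.2, 2815, 2347, 2232 and 2641 against 1984, 1682 and 1975; every let-7f female lay well below the lowest vehicle female (log2 change -0.40, SE 0.133). Genes of cell division followed. Ska3, which links kinetochores to the spindle, had 1016, 1308, 1301, 1328 and 1518 against 809.9, 881 and 810.1 (log2 change -0.62, SE 0.224). Kif20b, a kinesin of cytokinesis, had 2165, 1929, 1967, 2024 and 1954 against 1599, 1423 and 1861 (log2 change -0.31, SE 0.13). In Kif20b, let-7f female 3 came close to the lowest vehicle female. The others were Xbp1 and Hspa5, described next, Fam221a (-0.72, SE 0.254), the zinc finger gene Zkscan4 (-0.34, SE 0.135), the mitochondrial depalmitoylase gene Abhd10 (-0.30, SE 0.123), the phosphatase subunit gene Ppp1r16a (-0.31, SE 0.128) and Mcrs1, a nucleolar and chromatin protein gene (-0.30, SE 0.127). Of the 24 genes in both sets, 0 carried a let-7 site of 8 bases in the 3' UTR. Among all tested genes with a 3' UTR the share was 3.68%, so a count of 0 among 24 lies close to that share.

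Genes of protein folding in the endoplasmic reticulum (ER) lay lower in let-7f females. When unfolded proteins build up in the ER, the sensors Ern1, Atf6 and Eif2ak3 raise the levels of chaperones and of the machinery that removes failed proteins, in part through the transcription factor Xbp1. Hspa5 (chr2:34771970-34777547, plus strand) encodes BiP, the main chaperone of the ER. It had 32446, 27666, 31291, 31087 and 38489 in vehicle and 20842, 21608 and 27633 in let-7f females. The highest let-7f female lay only just below the lowest vehicle female (log2 change -0.47, 0.724-fold, 95% interval -0.88 to -0.055). Xbp1 (chr11:5520659-5525893, plus strand) had 3017, 2713, 3240.3, 2958 and 3352 against 2309, 2134 and 2639.7, again without overlap (log2 change -0.37, 95% interval -0.68 to -0.066). Derl3, a part of the channel that takes failed proteins out of the ER, was at 56.9, 42.9, 46.7, 41.9 and 39.3 against 24.6, 26.9 and 28.1 (log2 change -0.75, SE 0.213). These 3 of 28 list members lay lower without overlap (background 0.707%), 0 lay higher without overlap, and 0 were called.

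In the whole ER list, 23 of 28 genes lay lower, and the median log2 change was -0.17, beside -0.0039 for all genes. Several chaperones and their helpers had the lower values, while Canx (-0.050, SE 0.158) and Edem1 (-0.040, SE 0.151) were near 0. Crebrf was the highest member (0.49, SE 0.414). The co-factors Sdf2l1 (-0.53, SE 0.345), Creld2 (-0.50, SE 0.347) and Manf (-0.44, SE 0.284) lay lower in all 3 let-7f females than the vehicle mean, as did Hyou1 (-0.25), Calr (-0.23) and Pdia4 (-0.26, SE 0.144). Hsp90b1, the ER member of the Hsp90 family, had 38036, 34236, 35660.5, 36396 and 47634 against 30719.7, 30319 and 38005, with overlap. The values of members outside the named-gene rule were picked from the list after they were seen. The 3 sensors had the opposite sign, with log2 changes of 0.15 for Ern1 (SE 0.368), 0.13 for Atf6 (SE 0.206) and 0.075 for Eif2ak3 (SE 0.264). By library, the median deviation of the list was 0.0093, -0.13, 0.068, -0.071 and 0.13 in vehicle females 1 to 5 and -0.26, -0.29 and -0.069 in let-7f females 1 to 3. The third let-7f female thus lay inside the vehicle range, and let-7f females 1 and 2 lay below it. In males the median change of the list was 0.083. Each female library left out in turn gave medians of -0.26 to -0.13, and the centring by transcript length gave -0.15. The list was among those named in earlier results of these data, so its direction is not independent evidence. The list of immediate early and heat shock genes was mixed, with 14 of 24 lower (median -0.047). Its cytosolic chaperone genes Hspa8 and Hsph1 had -0.44 (SE 0.219) and -0.41 (SE 0.198), both with overlap. The ATF4 amino acid response list had a median of -0.0049 over 26 genes.

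**Figure D4:**
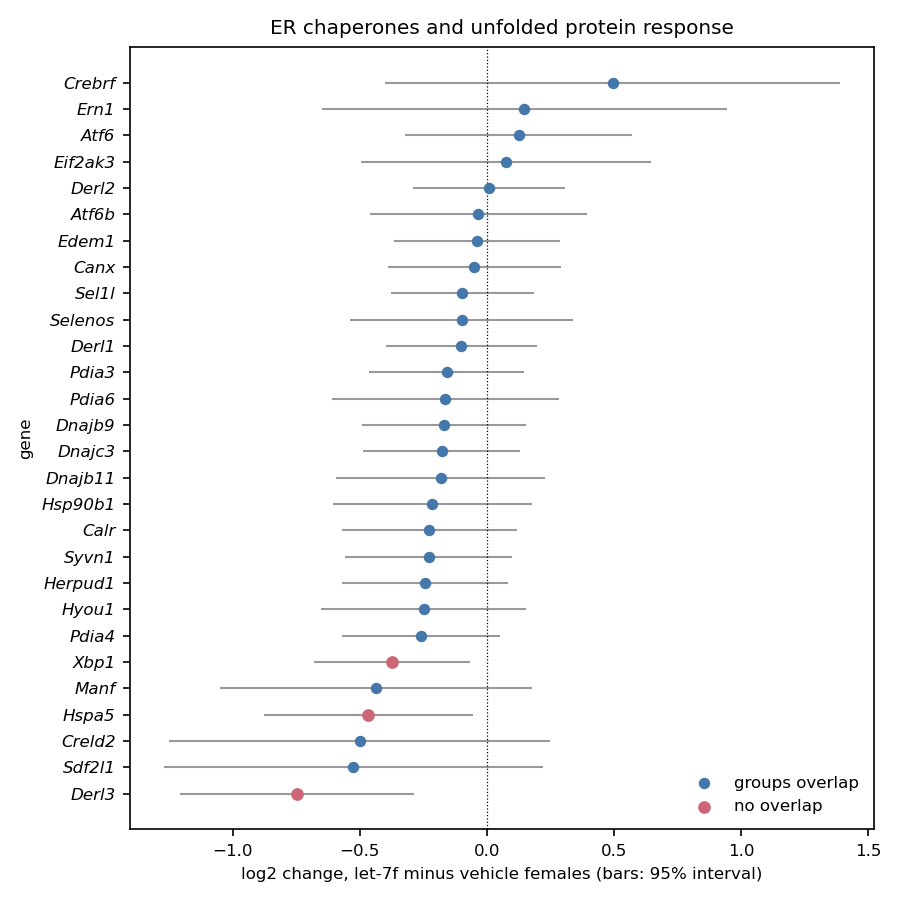
Log2 change of let-7f against vehicle females (horizontal axis, points) with 95% intervals (bars) for the 28 ER chaperone and unfolded protein response genes tested. Derl3, Hspa5 and Xbp1 (red) had no overlap between groups, and 23 of the 28 points lie below 0.

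Transcription factors of neural progenitors also lay lower. SOX factors of the B group keep cells of the neural tube in a progenitor state, and proneural factors of the bHLH family push them towards neurons. Sox3, an X-linked SOXB factor, had 302, 353, 344, 279 and 379 in vehicle and 232, 174 and 280.2 in let-7f females. The highest let-7f female lay at the lowest vehicle female, so the groups overlapped by a narrow margin (log2 change -0.55, 95% interval -0.99 to -0.11). Sox2 had 915, 1312, 1074, 893 and 1089 against 940.1, 697 and 1014 (log2 change -0.26, SE 0.188), Sox21 a log2 change of -0.33 (SE 0.181) and Sox1 one of -0.30 (SE 0.171). Nr2e1, a nuclear receptor of forebrain progenitors, and Rax, a factor of the early eye and hypothalamus, had -0.56 (SE 0.279) and -0.88 (SE 0.415). In all, 22 of 24 genes of the neural progenitor list lay lower (median -0.24, and -0.30 to -0.15 with each female library left out), with 0 called and 0 without overlap. By library, the list's median deviation was -0.16, 0.34, 0.033, -0.20 and 0.052 in vehicle and -0.17, -0.40 and -0.23 in let-7f females. Vehicle female 4 overlapped with the let-7f females, vehicle female 1 lay just above them, and vehicle female 2, the library nearly without liver transcripts, was the highest.

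Proneural and related bHLH factors lay lower in 16 of 19 (median -0.23), including Olig3, of dorsal progenitors (-0.63, SE 0.309), Neurog2 (-0.23, SE 0.141) and Neurog1 (-0.42, SE 0.307). The 3 that lay higher were Neurod6 (0.40, SE 0.615), Neurod2 (0.26, SE 0.5) and Atoh7 (0.14, SE 0.595). By library, the list's median was -0.13, 0.27, 0.020, -0.16 and 0.011 in vehicle and -0.23, -0.34 and -0.10 in let-7f females. Let-7f female 3 thus lay inside the vehicle range, and let-7f females 1 and 2 lay below it. Bhlhe23, given above, was the 1 member without overlap. Genes of postmitotic neurons were split evenly, 13 of 25 higher, with a median of 0.0038. In the FGF list, 13 of 25 genes lay higher with a median of 0.073, and 2 lay lower without overlap. Fgf15, a growth factor of the neural tube, had 403, 597, 398, 383 and 520.3 against 372, 303 and 363, without overlap (log2 change -0.39, SE 0.18). Fgf17, a signal of the midbrain and hindbrain border, had 95.6, 131, 89.7, 79.2 and 124 against 73.8, 47.0 and 74.1, also without overlap (log2 change -0.67, SE 0.339). Their relative Fgf8, with overlap, had -0.60 (SE 0.342). In the other direction Fgf7, a signal from mesenchyme to epithelium, had 0.63 (SE 0.286). Notch pathway genes had a median of -0.10, Hedgehog genes 0.035, Wnt genes -0.013 and retinoic acid genes 0.020, each with 0 members without overlap.

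Collagen genes were high in let-7f females 1 and 2 and not in let-7f female 3. Collagens lay higher in 25 of 28 (median 0.18), among them Col8a1 (0.43, SE 0.263) and Col14a1 (0.36, SE 0.246). Col1a1, the main collagen of bone and skin, had 33425, 28962, 33792, 41267 and 33083 in vehicle and 51515, 43420.3 and 23058 in let-7f females. Let-7f females 1 and 2 were above every vehicle female there, and let-7f female 3 was below all of them. By library, the collagen median was 0.32, 0.35 and -0.12 in let-7f females against 0.15, -0.15, -0.081, 0.22 and -0.14 in vehicle females. Without let-7f female 3 it came to a change of 0.35, and without let-7f female 1 to 0.10. Runx2, the master regulator of bone formation, had 748, 1029, 726, 731 and 776 against 1161, 1085 and 924 (log2 change 0.40, SE 0.154), and vehicle female 2 alone overlapped with the let-7f females. Cartilage genes lay higher in 16 of 21 (median 0.20, which was 0.080 without let-7f female 2 and 0.37 without vehicle female 1). Vehicle female 1 was the highest of the 8 libraries for cartilage, at 0.48 against 0.30, 0.45 and -0.10 in let-7f females. In the BMP list, the ligand gene Bmp5 had 565, 542, 564, 525 and 463 against 583, 596 and 571 and the BMP antagonist gene Grem1, also in the limb list and chosen after its values were seen, had 435, 432, 452, 443 and 446 against 515, 528 and 459. Both were without overlap and small in size (log2 changes of 0.14 and 0.18). Skeletal muscle sarcomere genes lay higher in 26 of 30 (median 0.24, and 0.095 to 0.41 with each female library left out), with Neb, the giant ruler protein of thin filaments, at 0.41 (SE 0.214). By library the sarcomere median was 0.63, -0.27, -0.54, 0.46 and -0.29 in vehicle and 0.16, 0.34 and 0.18 in let-7f females, so vehicle females 1 and 4 lay above every let-7f female. Heart muscle genes had a median of -0.013. Rbm24 was the 1 myogenic regulator of 19 without overlap.

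Liver, blood and lens differed more between single fetuses than between the groups. Liver genes lay higher in 28 of 29 with a median of 1.23, but Afp, the fetal serum protein alpha-fetoprotein, had 58798, 123, 22590.4, 51321 and 20966 in vehicle and 30353, 33240.2 and 29848 in let-7f females. The let-7f values sat in the middle of a vehicle range that reached down to vehicle female 2. Without that library the median change of the liver list was 0.074. The 4 adult globins had a median of 0.43, which was -0.17 without vehicle female 2, and red cell membrane genes 0.35, which was 0.080 without it. Embryonic globins lay lower in 3 of 3 (median -0.25). All 19 lens genes tested lay higher (median 0.36, and 0.13 to 0.62 with each female library left out, lowest without vehicle female 3 and highest without vehicle female 1), with Cryga, a crystallin of lens fibers, at 207, 12.3, 5.49, 104 and 2.87 in vehicle and 69.9, 98.9 and 23.0 in let-7f females. Vehicle females 1 and 4 had the highest summed levels of liver and of adult globin genes among the 8. Markers of tissues outside the fetus were read as summed levels. Of 29 listed trophoblast markers, 14 had values. Their sum ran from 11254 to 19244 in vehicle and from 14323 to 19356 in let-7f females. For 13 of 15 listed yolk sac endoderm markers the sum ran from 6727 to 8319 and from 6585 to 8441. Both of these sums overlapped between the groups. For 14 of 15 listed decidua markers the sum ran from 15218 to 16471 in vehicle and from 16533 to 17307 in let-7f females, without overlap and with 0 markers at 0 throughout a group. The part of such tissue in the other results was not tested.

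**Figure D5:**
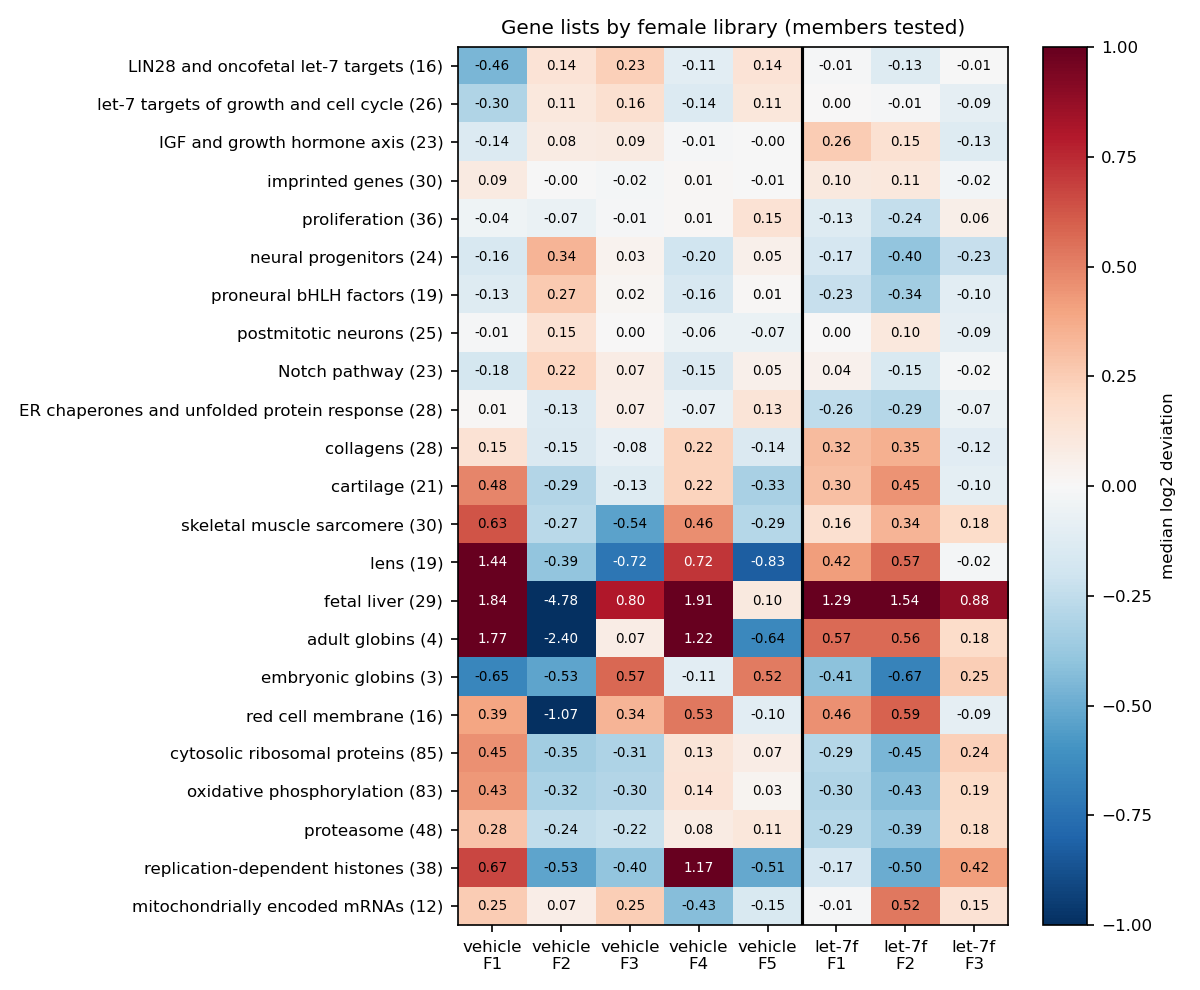
Median over list members of the log2 difference between a library and the mean of the vehicle females, for 23 gene lists (rows, with the number of members tested) in the 8 female libraries (columns; F, female; colours clipped at 1). The ER list is -0.26, -0.29 and -0.07 in the let-7f females, and the value farthest from 0 is -4.78 for liver genes in vehicle female 2.

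Genes with short transcripts, taken as a class, varied together across libraries, in both groups. The cytosolic ribosomal protein genes lay lower in let-7f females in 83 of 85 (median -0.17), the nuclear genes of oxidative phosphorylation in 79 of 83 (-0.19), the proteasome genes in 45 of 48 (-0.17) and the mitochondrial ribosomal proteins in 73 of 78 (-0.14), with 0 of them without overlap. By library the cytosolic ribosomal protein median was 0.45, -0.35, -0.31, 0.13 and 0.074 in vehicle and -0.29, -0.45 and 0.24 in let-7f females, so each group held both high and low libraries, and leaving out each female library in turn gave median changes of -0.37 to -0.030. The 2372 genes whose longest transcript is at most 1500 bases followed the same order, with medians of 0.33, -0.21, -0.19, 0.11 and 0.014 in vehicle and -0.17, -0.24 and 0.16 in let-7f females. Genes over 5000 bases had the opposite signs in 7 of the 8 libraries. The 12 mitochondrially encoded messenger RNAs are also short (median 870.5 bases) but did not follow the order of the short class. Their medians were 0.25, 0.068, 0.25, -0.43 and -0.15 in vehicle and -0.015, 0.52 and 0.15 in let-7f females, and 9 of 12 lay higher (median change 0.21). Between the groups, the short class had a median log2 change of -0.095 and the long class one of 0.064. With libraries centred within 20 classes of transcript length, the ribosomal protein median was -0.084 and that of oxidative phosphorylation was -0.094, while the neural progenitor median was -0.21 and the collagen median 0.12.

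Of the 62 lists in all, 38 had a median above 0. Their 1422 distinct members tested held 0 called genes, 7 that lay higher without overlap (0.492%, against 0.787% of all genes) and 8 that lay lower (0.563%, against 0.707%). Apart from those given above, the members without overlap included Ifit1, an interferon-induced RNA sensor, with 21.5, 21.9, 12.8, 8.38 and 11.5 in vehicle and 22.2, 24.0 and 37.5 in let-7f females, and Pou4f2, a factor of sensory neurons, with 79.5, 93.7, 87.0, 76.4 and 71.9 against 69.9, 69.1 and 64.7. The first of these lay in an interferon list with 19 of 29 genes higher (median 0.13, which was -0.0032 without vehicle female 3 and 0.22 without vehicle female 1). DNA methylation genes (0.032), Hox genes (0.012), cholesterol synthesis genes (0.053) and genes of hypoxia and glycolysis (0.00080) had medians close to that of all genes.

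Whether the let-7f change in females differed from that in males was tested in the same fit. By limma 0 of 17400 genes were called (smallest adjusted p 0.213), and 1485 had an unadjusted p below the 0.05 level. The counts called were 0 by edgeR, with 1791 below that unadjusted level, and 24 by DESeq2. The male change rests on 2 let-7f males, and without let-7f male 2 the count was 3206, in a fit where the lone remaining let-7f male, which had 16.1% of its reads in ribosomal protein genes, is assumed to vary like the other groups. The genes with the smallest p included 2 that lay higher without overlap in females. Slc26a7, given above for females, had a log2 change of -1.03 in males (difference 2.14, SE 0.494), and Bnip3 had 0.25 and -0.35 (difference 0.60, SE 0.144). On the other side Sox3 had -0.55 in females and 0.75 in males (difference -1.30, SE 0.314). Klf14, an imprinted transcription factor gene, had 118, 63.9, 63.2, 91.3 and 62.3 in vehicle and 122, 132 and 80.9 in let-7f females, and 115, 129, 136 and 90.5 in vehicle and 35.3 and 45.3 in let-7f males. The groups overlapped in females and were apart in males (difference 2.02, SE 0.403). Grip2, a scaffold protein of synapses, had 3261, 1781, 2081, 2057 and 1572 against 1120.4, 2192 and 1329.7 in females and 1186, 1224, 1440.4 and 1775 against 4626 and 4619 in males (difference -2.22, SE 0.386), again with overlap in females alone. The other 5 genes were Lhcgr and Cntn6, with positive differences, and Robo3, Pdzk1ip1 and Hba-x, with negative ones. None passed the adjustment in limma or edgeR, while the 24 genes DESeq2 called included 7 of them, Slc26a7, Bnip3, Klf14, Grip2, Robo3, Pdzk1ip1 and Hba-x.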

How the data were processed

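Poly-A RNA of 14 whole fetuses was measured; the labels' protocols name a stranded TruSeq kit. Tools listed in the submitters' processing notes, without their role, include kallisto 0.50.1, Trimmomatic 0.39 and DESeq2 1.48.2, with the build GRCm39. Per the labels the deposited values are normalized counts, held here as a signal for each gene and fetus. All values were whole multiples (within 1e-06) of 1 value per library, so whole reads were recovered for count models; 1 unnamed row (at most 0.0334% of reads) was left out. In 20 of 20 pairs of replicates the reads differed beyond sampling noise, with a chi-square over its degrees of freedom of 18.7 or more.

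Genes with a mean value of at least 10 over all 14 libraries were kept, 17400 of 18132. One limma 3.58.1 model (lmFit, eBayes with trend, R 4.3.3) of log2(value + 1) with a mean per group gave the changes; log2 changes of low genes are understated. Adjusted p-values are Benjamini-Hochberg values over the whole table, with a threshold of 0.05. Annotation is GENCODE M21 (GRCm38), matched by symbol for 96.6% of genes; coordinates come from that build, not from the GRCm39 of the notes. BLAST+ 2.17.0+ compared copies. Members, gene lists and tests were chosen with earlier results of these data known. The genes named are those called, the 12 smallest p-values per direction among genes without overlap, with a mean of at least 50 and an established symbol, up to 4 members per list with the smallest p and its first 2, a fixed set of let-7 and growth genes, and 5 per direction for the sex difference; others are said to be chosen after their values were seen, and a few genes that meet the rule are not reported here. Lists are described by counts and medians, with no test. The alternatives changed the pseudocount (0.5 or 5), the filter (none, or a mean of 50), the scaling (75th percentile) or the model (robust spread, library weights, females alone, edgeR 4.0.16, DESeq2 1.42.0), or used a replicate block, or left out each library or those that stood apart, and, added after seeing the data, centred values by transcript length. The procedure was tested on simulated data.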

Additional observations from a re-analysis of the deposited data

Results flagged for a closer look

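A vehicle female library far from the other 4 was found in 5 of 98 checked values (list medians and named genes), where chance flags about 1 in 20. The measure is the gap between the farthest library and its neighbour as a share of the whole range, with a critical value of 0.710 for 5 libraries. Fetal liver genes (0.729) and yolk sac endoderm genes (0.859) were lowest in vehicle female 2, as was the calcium-binding protein gene Gca (0.742). Vehicle female 1 was lowest for the 4 Y-linked genes (0.776) and highest for Lrrc23 (0.906).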

How the results depend on the processing

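The count of genes called in females was 1 as reported. It was 0 with a pseudocount of 5, only the 8 female libraries, vehicle females 1 and 2 left out, the 5 libraries that stood apart left out, or edgeR; 2 with no filter on low values (Gm2436 and Gm5619) or DESeq2; and 18 with library weights, among them Rbm24, Hspa5, Xbp1, Ska3, Myrip and Padi2. With each library left out in turn it ranged from 0 to 1; Gm2436 kept its direction in every alternative. For the difference between the sexes the count was 0 as reported, 24 with DESeq2 and 0 to 3206 with each library left out. With the replicate block, 0 genes were called for either, and 73 had an unadjusted p under 0.05 in females. Replicate numbers did not pair the libraries, as the deviations of let-7f and vehicle females with the same number correlated at -0.289, 0.031 and -0.326.

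Of 8105 recomputed values of named genes, 8 lost their call, all of them Gm2436, 60 moved by more than the spread and 8037 did neither. Gm2436 and the genes named for the smallest p among those without overlap were judged there by sign and call only. The recomputation did not cover the robust spread model, library weights, females alone, edgeR, DESeq2 or the fit without the 5 libraries that stood apart. Of 1364 list medians recomputed, 14 moved by more than the spread over vehicle females, among them the IGF axis (0.16 without let-7f female 3) and heart muscle (-0.26 without that library). Genes with a let-7 site of 8 bases that lay lower without overlap numbered 4 under rescaling. With a female library left out they numbered 10 to 49. Without let-7f female 3, 49 lay lower (8.45% of 580, against 11.9% of all genes with a 3' UTR) and 43 higher (7.41% against 6.64%). With any other female library left out, 1.72% to 3.97% lay lower. That was each time above the share of all genes with a 3' UTR, which was 0.932% to 2.16%. With 3 and 5 fetuses, a typical gene needed a change beyond 1.43-fold for its unadjusted interval to exclude 0. The cause of these differences was not tested.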

Other observations

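Prnd, which encodes the prion-like protein doppel and lies next to Prnp, had 114, 47.3, 46.7, 71.7 and 41.2 in vehicle and 9.53, 0 and 0 in let-7f females, and 113, 37.5, 38.1 and 0 in vehicle males. It was chosen after its values were seen; its mean was below the level set for named genes. Prnp itself had 1559, 1329.6, 1864, 1317 and 1206 in vehicle and 1438, 1547 and 1388 in let-7f females. The locus Prn, likewise chosen after its values were seen, lay higher without overlap. It had 327, 313, 332, 349 and 262 in vehicle and 390, 484 and 434 in let-7f females. Whether reads were split differently between Prnd and Prn was not tested. The locus Gm5619, also chosen after its values were seen and below the filter on low values, had 0, 0, 0.92, 0 and 0 in vehicle females, 12.7, 13.4 and 15.3 in let-7f females and 0 in every male. Vdr, the vitamin D receptor gene, also chosen after its values were seen, had 99.9, 191, 201, 181 and 165 against 127, 31.7 and 30.7, with let-7f female 1 inside the vehicle range. Over the autosomes and the X chromosome, median log2 changes in females ran from -0.034 to 0.030, with 0.030 for the 600 genes on X, and the 10 genes on Y had 0.083.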
